A study of Mus musculus with 2 samples.

Results

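The cells described here were tumor macrophages that combined high C1q transcripts with Selenop and Mrc1, and they made up 1033 of the 20407 cell barcodes of both libraries (585 of 10217 in the MWA library and 448 of 10190 in the MWA plus TIGIT library). They were selected on raw UMI counts, a UMI being 1 counted RNA molecule. Among other conditions, barcodes needed at least 200 genes and at most 10% mitochondrial UMIs, at least 10 UMIs of C1qa, C1qb and C1qc together, and at least 5 UMIs of Selenop and Mrc1 together. The monocyte genes Ly6c2, Plac8 and Chil3 summed to under 5, the proliferation genes Mki67 and Top2a to under 3, the interferon-induced genes Rsad2, Ifit1, Ifit2 and Ifit3 to under 10, and the hypoxia genes Hilpda, Ndrg1 and Bnip3 to under 5. No UMI of Cd3d, Cd3e or Cd3g was allowed. Levels of these genes are therefore a description of the choice.

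The study treated MC38 colon tumors, grown under the skin of both flanks of male C57BL/6 mice of 6 to 8 weeks, by microwave ablation (MWA) of the right tumor. The MWA group received an isotype control antibody, and the MWA plus TIGIT group an antibody against the T cell checkpoint receptor TIGIT (clone 1G9), given every 3 days from 1 day after ablation. On day 8 the left tumor, which was never heated, was collected, and sorted CD45+ cells were profiled by 3′ single-cell RNA sequencing. The MWA library held 66152465 UMIs and the MWA plus TIGIT library 78751205. There was 1 library for each group, the number of mice behind a library was not given, and the labels and methods differ in the number of injections. The series holds no untreated or TIGIT-only library, so both groups share the distant ablation. With 1 library in each group no test of the treatment was possible, all intervals below are 95% intervals that cover counting error only, and no difference between the libraries has a replicate check.

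Macrophages of this kind are known from many tissues. C1qa, C1qb and C1qc encode the chains of C1q, which starts the classical complement pathway and coats dying cells. Selenop encodes selenoprotein P, a secreted carrier of selenium, and Mrc1 encodes the mannose receptor CD206, an endocytic receptor for glycoproteins. Selenop and Mrc1, together with Folr2, Lyve1, Cd163 and the chemokine gene Ccl8, are widely used to mark tissue-resident or perivascular macrophages, while monocyte-derived tumor macrophages often carry Spp1 or high MHC class II.

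After the limits on genes and mitochondrial UMIs, 10037 MWA and 9913 MWA plus TIGIT barcodes were kept. The selected macrophages were 5.83% of the kept MWA barcodes (exact Clopper-Pearson interval 5.38 to 6.30%). In the MWA plus TIGIT library they were 4.52% (4.12 to 4.95%). Among C1q macrophages, meaning kept barcodes with at least 10 C1q UMIs and no Cd3 UMI, their share was 15.4% of 3808 cells in MWA (14.2 to 16.5%). It was 10.6% of 4241 cells in MWA plus TIGIT (9.65 to 11.5%). C1q macrophages as a whole were 37.9% of the kept MWA barcodes and 42.8% of the kept MWA plus TIGIT barcodes. A median of 8038 UMIs and 2368 genes was counted in each selected MWA cell, and of 9242 UMIs and 2533.5 genes in each selected MWA plus TIGIT cell. Over all kept barcodes the medians were 5747 and 6838 UMIs. Mitochondrial genes held 1.10% and 1.20% of the selected cells' UMIs, and ribosomal protein genes 25.9% and 24.5%.

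The rule counts raw UMIs, and C1q macrophages had a median depth of 8595.5 UMIs in MWA and 10544 in MWA plus TIGIT. With barcodes thinned to 5000 UMIs before the rule, the selected cells were 14.6% of C1q macrophages in MWA and 11.7% in MWA plus TIGIT. That setting also left out shallower barcodes and kept 5641 and 6143. Without barcodes over 5000 UMIs the shares were 14.7% and 11.0%. The shares are those of the full rule, and their order between the libraries is not extended to such macrophages at large. Low neighbours are the 582 and 361 barcodes that met all conditions but the Selenop and Mrc1 minimum. With at least 10 Selenop and Mrc1 UMIs, the shares of kept barcodes were 2.67% and 2.63%. As a share of C1q macrophages that stricter setting gave 7.04% and 6.15%.

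The step at 5 UMIs was a point on a gradient. Barcodes that met every other condition and had exactly 4 Selenop and Mrc1 UMIs numbered 87 in MWA and 42 in MWA plus TIGIT, and those with exactly 5 numbered 71 and 50. Ccl8, which the rule did not use, stood just outside at 321 counts per 1000000 UMIs (CPM) in MWA and 123 in MWA plus TIGIT. Just inside it stood at 109 and 139.

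The markers of the label that the rule required are described first. The level of a gene is given in CPM, from the UMIs summed over the selected cells of a library (4809851 and 4190035 UMIs), and 3′ counting needs no correction for gene length. C1qa (mouse build GRCm38, also called mm10, chromosome 4, 136895917 to 136898803, minus strand) stood at 6210 CPM in MWA and 6579 in MWA plus TIGIT. Its median was 49 and 60.5 UMIs a cell. Selenop (chromosome 15, 3268547 to 3280508, plus strand) stood at 983 CPM (956 to 1012) and 1001 CPM (971 to 1032), with a median of 7 and 8 UMIs a cell. Mrc1 (chromosome 2, 14229392 to 14332057, plus strand) stood at 359 CPM (342 to 376) and 391 CPM (372 to 410), with a median of 2 and 3 UMIs.

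Ccl8 (chromosome 11, 82115185 to 82116799, plus strand), a ligand of the chemokine receptors that draw monocytes and T cells, was the marker that the rule left free. It stood at 325 CPM (309 to 342) in MWA and 404 CPM (385 to 424) in MWA plus TIGIT. A Ccl8 UMI was found in 33.3% and 37.3% of the cells, beside 2.13% and 3.44% of T cells (at least 3 Cd3 UMIs), whose median depths were 3610 and 3760 UMIs. After each cell was thinned to 2000 UMIs, which left 573 and 442 cells, the shares were 21.5% in both libraries, beside 1.06% and 2.03% of T cells. Ccl8 was thus a gene of a minority of these macrophages at high level, since the tenth of cells with the most Ccl8 held 81.6% and 81.0% of its UMIs.

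Other genes of resident-type macrophages were split. Folr2, the folate receptor of many resident macrophages (chromosome 7, 101839988 to 101857194, minus strand), had a UMI in 36.6% and 38.8% of the cells, beside 1.44% and 1.67% of T cells. After thinning it was found in 16.6% and 18.8%, beside 0.793% and 0.839% of T cells. Maf, a transcription factor of the resident-type program, stood at 352 and 383 CPM, and Stab1, a scavenger receptor, at 393 and 397. The chemokine gene Pf4 stood at 554 and 451 CPM, the transglutaminase gene F13a1 at 136 and 116, and the carbonyl reductase gene Cbr2 at 112 and 112. In contrast, the haptoglobin-hemoglobin receptor gene Cd163 reached 3.33 and 2.39 CPM and was found in 1.71% and 2.23% of the cells, beside 0.0256% and 0.0269% of T cells. After thinning Cd163 was found in 0.698% of the MWA cells and in 0 of the MWA plus TIGIT cells. Lyve1, a hyaluronan receptor of perivascular macrophages, came from 3 cells in each library, of which 1 cell held 11 of 16 UMIs in MWA and another 11 of 15 in MWA plus TIGIT. Timd4, a receptor for phosphatidylserine on long-lived resident macrophages, had 0.208 CPM in MWA and no UMI in MWA plus TIGIT. Marco, a scavenger receptor, had no UMI in either. For scale, 3 cells would be 0.513% in MWA and 0.670% in MWA plus TIGIT, which is no Clopper-Pearson limit. The presence of C1qa, Selenop and Mrc1 was fixed by the rule and is no check of the label.

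Markers of other cell types were summed and set beside their sums over all kept barcodes. Of 10 T cell genes 7 had a UMI and Cd3d, Cd3e and Cd3g were at 0 by the rule. Together the T cell genes summed to 21.2 and 16.2 CPM, with Trbc2 the most abundant, against 1781 and 1617 CPM over all barcodes. The 7 NK cell genes summed to 8.94 and 4.77 CPM (568 and 555 over all), led by Nkg7, with Ncr1, Eomes and Prf1 at 0. The 7 B cell genes summed to 95.2 and 109 CPM (103 and 447 over all), nearly all from Ighm, the immunoglobulin heavy chain gene, at 85.0 and 93.8 CPM, while Cd79a and Ms4a1 were at 0. The 10 dendritic cell genes, all with a UMI, summed to 45.1 and 41.3 CPM (74.1 and 62.5 over all), led by Batf3.

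The 8 neutrophil genes summed to 164 and 45.8 CPM (221 and 291 over all) and all had a UMI. Their most abundant gene over both libraries was Csf3r, at 38.5 and 36.3 CPM, and the MWA sum was carried by S100a8 and S100a9 of 1 cell. The 5 mast cell and basophil genes had no UMI (2.93 and 0.663 CPM over all). The 6 epithelial genes, a check for tumor cells, summed to 1.66 and 2.86 CPM (18.1 and 20.9 over all), led by Cdh1, with the keratin genes Krt8, Krt18 and Krt19 at 0. The 6 fibroblast genes summed to 2.29 and 4.53 CPM (2.50 and 5.01 over all), led by Col3a1, and the 6 endothelial genes to 6.24 and 5.97 CPM (9.79 and 9.19 over all), led by Vwf, with Cldn5 at 0. The fibroblast genes, and the B cell genes in MWA, were thus near their level over all barcodes. A caller based on simulated sums of barcodes marked 25 of the selected MWA cells (4.27%) and 10 of the MWA plus TIGIT cells (2.23%) as doublets. Of 37 barcode sequences that occur in both libraries, 1 was a selected cell in MWA and 0 in MWA plus TIGIT.

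**Figure D1:**
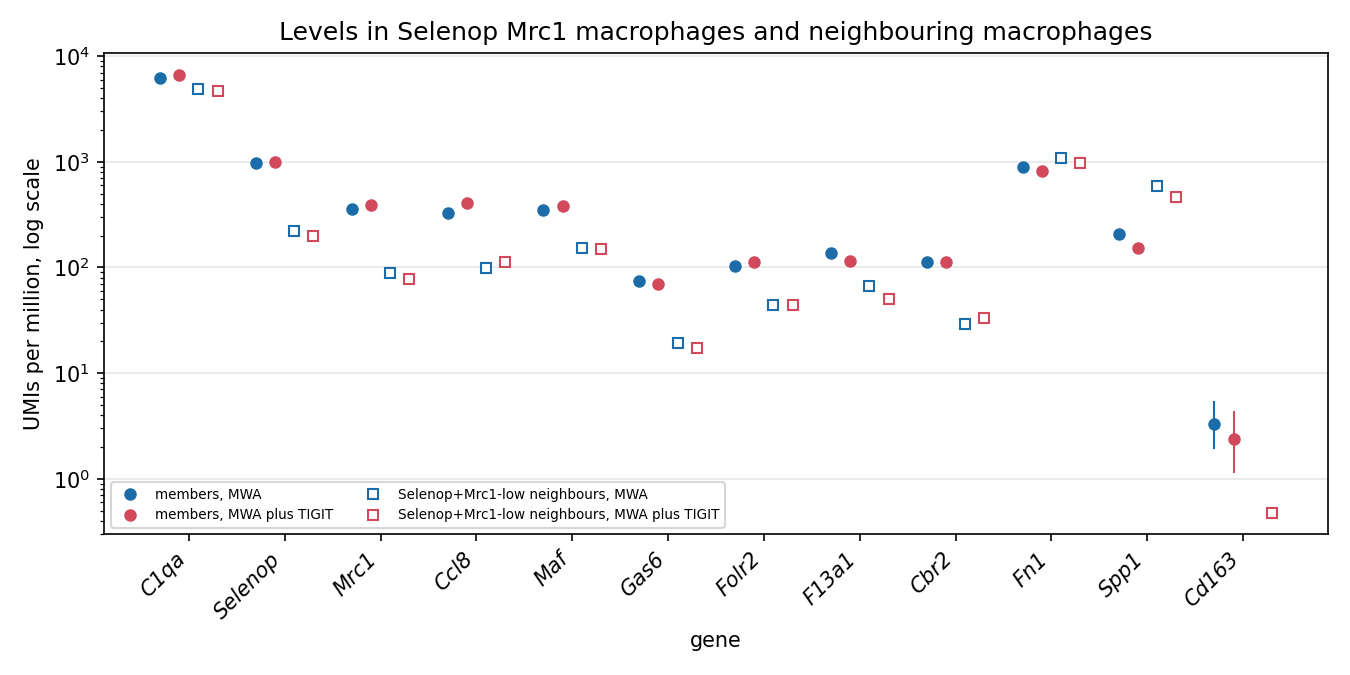
Level (CPM, log axis) of 12 genes in the Selenop Mrc1 macrophages (filled circles, with exact Poisson intervals) and in neighbours with under 5 Selenop and Mrc1 UMIs (squares), blue for MWA and red for MWA plus TIGIT. A level of 0 is not drawn, and Cd163 lies at 3.33 and 2.39 in the selected cells.

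The most abundant transcripts are given outside mitochondrial and ribosomal protein genes. Tmsb4x, which binds actin monomers, led at 24302 and 24150 CPM. Apoe, the lipid carrier apolipoprotein E, followed at 19301 and 21971 CPM, at a log2 ratio of MWA plus TIGIT over MWA of 0.19 (0.17 to 0.20). Lyz2, the lysozyme of myeloid cells, stood at 15279 and 15094 CPM, and the ferritin heavy chain gene Fth1 at 13089 and 12031. The actin gene Actb stood at 11816 and 13096 CPM, and the nuclear noncoding RNA Malat1 at 8568 and 8420. Cd74, the invariant chain of MHC class II, reached 6963 and 9105 CPM. The other genes of the 25 highest were C1qb, C1qc, Ftl1, Tpt1, Eef1a1, Fcer1g, Cst3, B2m, Tyrobp, Ctss, H2-Aa, Cd52, H2-Eb1, Ppia, H2-Ab1, Fos and Itm2b, beside C1qa. They lay between 2147 and 6218 CPM in MWA. Among their functions are complement, iron storage, translation, Fc receptor signaling, lysosomal proteolysis and antigen presentation.

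The effect of adding the TIGIT antibody after ablation is the question the pair of libraries addresses. Genes were compared when they had at least 50 CPM in a library and at least 20 UMIs in all, without the genes of the rule, which left 2544 genes. Of these, 3 were at least 2-fold higher in MWA plus TIGIT (0.118%) and 4 at least 2-fold lower (0.157%). Over all 2544 genes the median log2 ratio was 0.02, with 1448 genes (56.9%) higher. Without barcodes over 5000 UMIs, which left 76 and 44 cells, 95 genes were higher and 157 lower by that size, and with no CPM minimum 80 and 101. Few genes thus passed the size rule at this depth and level filter, and 5 of the 7 that did rested on few cells, fell under 2-fold without the highest cell of each library or were as different in unrelated cells.

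Of the higher genes, Tnip3, an inhibitor of NF-κB signaling (chromosome 6, 65525313 to 65634040, plus strand), stood at 54.7 CPM in MWA and 118 in MWA plus TIGIT, 2.15-fold (1.85 to 2.51). Its log2 ratio of 1.11 compared with 0.55 in the low neighbours. A Tnip3 UMI was found in 19.5% and 27.2% of the cells, beside 1.69% and 2.15% of T cells, and in 8.55% and 11.8% after thinning, beside 0.852% and 0.955% of T cells. Ccl5, a chemokine gene (chromosome 11, 83525778 to 83530518, minus strand), stood at 88.2 and 192 CPM, at a log2 ratio of 1.12 (0.95 to 1.30). It was also higher in the low neighbours (0.86) and in T cells (0.61). A single MWA plus TIGIT cell held 264 of its 804 UMIs there, and without the highest cell of each library, a comparison chosen after seeing the data, the ratio was 0.67. Retnla, a secreted protein of alternatively activated macrophages, stood at 3.33 and 110 CPM, at a log2 ratio of 5.05 (4.34 to 5.87). It had 16 UMIs in 1 MWA cell and 462 UMIs in 8 MWA plus TIGIT cells, of which 1 called doublet held 227.

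Of the lower genes, the neutrophil genes S100a8 and S100a9, which encode the subunits of calprotectin, rested on 1 MWA cell called a doublet. It held 240 of 252 S100a8 UMIs and 303 of 315 S100a9 UMIs. The log2 ratio of S100a9 was -5.29 (-6.62 to -4.23). That of S100a8 was -3.46 (-4.19 to -2.80) and, with called doublets left out, 0.75. In the low neighbours both genes were lower as well, S100a8 at -2.89 and S100a9 at -3.27. Gm10076, annotated as a long noncoding RNA, stood at 1264 and 606 CPM, at a log2 ratio of -1.06. It was lower by a like amount in the low neighbours (-1.06) and in T cells (-1.14), so it differed between the libraries and not in these macrophages alone.

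Thbs1, the matrix glycoprotein thrombospondin 1 (chromosome 2, 118111876 to 118127133, plus strand), stood at 84.2 CPM (76.2 to 92.8) in MWA and 39.9 CPM (34.0 to 46.4) in MWA plus TIGIT. Its log2 ratio was -1.08 (-1.35 to -0.82), beside -0.39 in the low neighbours. Thbs1 passed the level filter by MWA alone, which favours this direction. A Thbs1 UMI was found in 24.1% and 17.6% of the cells, beside 1.77% and 1.64% of T cells, and in 12.7% and 6.79% after thinning, beside 0.823% and 0.868% of T cells. Hes1, a transcriptional repressor downstream of Notch (chromosome 16, 30064384 to 30067796, plus strand), came next at 127 CPM (117 to 137) and 65.9 CPM (58.3 to 74.1), at a log2 ratio of -0.94 (-1.15 to -0.74). It was found in 35.9% and 25.9% of the cells, beside 1.49% and 0.994% of T cells, and in 18.0% and 9.50% after thinning, beside 0.734% and 0.463%. Hes1 was lower in the low neighbours (-0.76) too.

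The remaining genes among the 12 lowest ratios lay between -0.67 and -0.50. They were Taf1d, a subunit of the factor that starts ribosomal RNA transcription, Siglece, an inhibitory sialic acid receptor, the vesicle gene Syngr1, Anxa1, an anti-inflammatory annexin, Arid5a, which stabilises cytokine mRNAs, the TGF-β family gene Gdf3, and the transcription factor gene Ets2. Siglece was at -0.66. Siglece, Arid5a and Gdf3 passed the level filter by MWA alone, which favours this direction. The remaining genes among the 12 highest lay between 0.61 and 0.76. They were the complement genes C3, C4b and Cfb, the interferon-inducible chemokine genes Cxcl9 and Cxcl10, the MHC class II transactivator gene Ciita, the surface antigen gene Ly6a, the DNA-binding gene Arid5b and the kinase gene Csnk1e.

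Of the 22 lists of genes by function, MHC class II, which presents peptides to CD4 T cells, had the median farthest from that of all compared genes. Of 13 genes 8 passed the level filter, 7 were higher in MWA plus TIGIT and 1, the costimulatory ligand gene Cd86, was lower at -0.06 (-0.27 to 0.15). The median log2 ratio of the 8 was 0.39, beside 0.02 over all compared genes. Summed over the list, the level was 16024 CPM in MWA and 21024 in MWA plus TIGIT. H2-Aa, a chain of the I-A molecule (chromosome 17, 34282744 to 34287823, minus strand), stood at 2796 CPM (2748 to 2843) and 3658 CPM (3600 to 3716), at a log2 ratio of 0.39 (0.35 to 0.42). H2-Ab1 was at 0.45 (0.41 to 0.48), H2-Eb1 at 0.39 (0.36 to 0.42) and Cd74 at 0.39 (0.37 to 0.41). The peptide exchange genes H2-DMa and H2-DMb1 were at 0.33 and 0.35, and Ciita, which switches on the family, at 0.63 (0.36 to 0.91). Ciita passed the filter by MWA plus TIGIT alone, so its direction adds little to the count. The low neighbours had a smaller median in the same direction, 0.15. Under TMM factors, under totals without ribosomal and mitochondrial genes, and under the mean of per-cell CPM the median was 0.35, 0.36 and 0.28, so no scaling turned the direction. Without barcodes over 5000 UMIs, which left 76 and 44 cells, it was 0.12, below the interferon-γ list at 0.35 and the type I interferon list at 0.38.

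Cell by cell, the summed level of H2-Aa, H2-Ab1, H2-Eb1 and Cd74 ranged widely. Its median was 7205 CPM a cell in MWA (quartiles 860 and 28194) and 12788 CPM in MWA plus TIGIT (quartiles 2056 and 34935), beside 304 and 281 CPM in T cells. Above the median of all selected cells, 9123 CPM, lay 46.3% of the MWA cells (42.2 to 50.5%) and 54.7% of the MWA plus TIGIT cells (49.9 to 59.4%). In T cells these shares were 0.436% and 0.591%. In the low neighbours they were 58.9% and 65.9%.

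**Figure D2:**
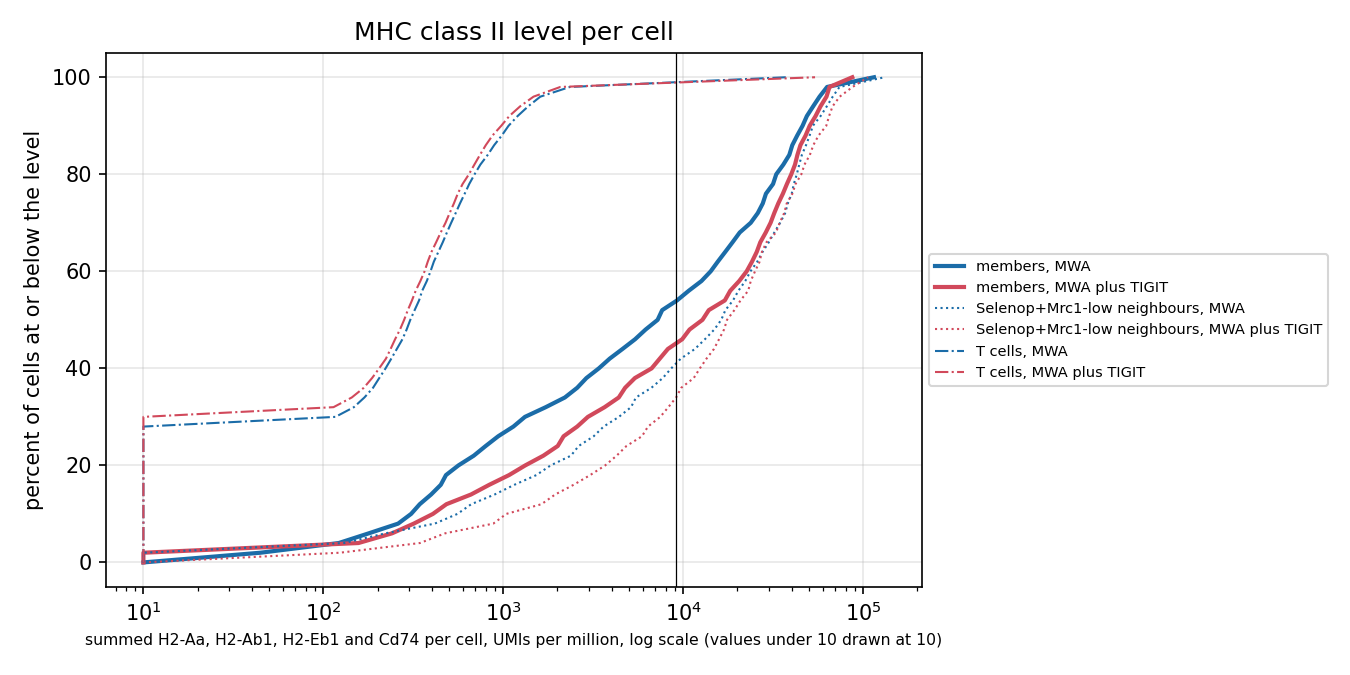
Percent of cells at or below a given MHC class II level (summed H2-Aa, H2-Ab1, H2-Eb1 and Cd74, CPM of each cell, log axis) in the Selenop Mrc1 macrophages (thick lines), low neighbours and T cells of MWA (blue) and MWA plus TIGIT (red). The vertical line marks 9123, above which lay 46.3% of the selected MWA cells and 54.7% of the selected MWA plus TIGIT cells.

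Genes induced by interferon-γ, the T cell and NK cell cytokine that activates macrophages, pointed the same way. All 14 genes of 24 that passed the filter were higher in MWA plus TIGIT, from 0.06 to 0.73, with a median of 0.27, and 13 of 14 were higher by the mean of per-cell CPM. Cxcl9, a ligand of CXCR3 on activated T cells (chromosome 5, 92321347 to 92328079, minus strand), stood at 486 CPM (467 to 506) and 768 CPM (742 to 795), at a log2 ratio of 0.66 (0.58 to 0.74). It was found in 33.7% and 42.6% of the cells, beside 3.46% and 4.14% of T cells, and after thinning in 22.5% and 28.1%, beside 1.73% and 2.05%. Cxcl10, another CXCR3 ligand, stood at 148 and 246 CPM, at 0.73 (0.59 to 0.87). The transcription factor gene Irf1 was at 0.29 (0.08 to 0.51) and the GTPase gene Gbp7 at 0.39 (0.19 to 0.59). The proteasome genes Psmb8 and Psmb9 were at 0.15 and 0.17, and the peptide transporter gene Tap1 at 0.06 (-0.15 to 0.26). The median was 0.02 in the low neighbours, where Cxcl9 was nevertheless at 0.50. Ciita, Cxcl9 and Cxcl10 stand in more than 1 list, and Ciita passed the filter by MWA plus TIGIT alone.

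The Cxcl9 difference lay on both sides of the MHC class II median. It was 0.40 (0.31 to 0.50) in cells above 9123 CPM and 0.86 (0.72 to 0.99) in cells below, against medians over all compared genes of 0.04 and 0.03. Cxcl10 was at 0.69 above and 0.77 below. The type I interferon list, whose genes answer interferon-α and interferon-β, had 9 genes past the filter of 21 in the files, 6 higher and 3 lower, with a median of 0.13. That median was 0.04 with the mean of per-cell CPM, 0.02 after thinning to 5000 UMIs and -0.03, with 4 higher and 5 lower, under at least 10 Selenop and Mrc1 UMIs. Its extremes were Isg15 at 0.20 and Bst2 at -0.19, and the rule had itself limited 4 genes of this response.

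Among 15 chemokine genes past the filter, 7 were higher and 8 lower, with a median of -0.03 that became 0.03 with the mean of per-cell CPM. The genes of 3 ligands of CCR2, the receptor that brings in monocytes, were lower in MWA plus TIGIT, a group that was not among the lists set beforehand. Ccl12 stood at 1244 and 906 CPM, at a log2 ratio of -0.46 (-0.52 to -0.40). Ccl2 (chromosome 11, 82035571 to 82037453, plus strand) stood at 1072 and 921 CPM, at -0.22 (-0.28 to -0.16), and Ccl7 at 635 and 504 CPM, at -0.33 (-0.41 to -0.25). These 3 genes were lower in the low neighbours, at -1.12, -0.52 and -0.99. Ccl4 was at -0.33 and Cxcl14 at -0.43, while the CXCR6 ligand gene Cxcl16 was at 0.20 (0.11 to 0.29) and Ccl6 at 0.51. The neutrophil attractant gene Cxcl2, at 870 and 885 CPM, had a ratio of 0.03. Ccl8 itself was at 0.31 (0.21 to 0.41).

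**Figure D3:**
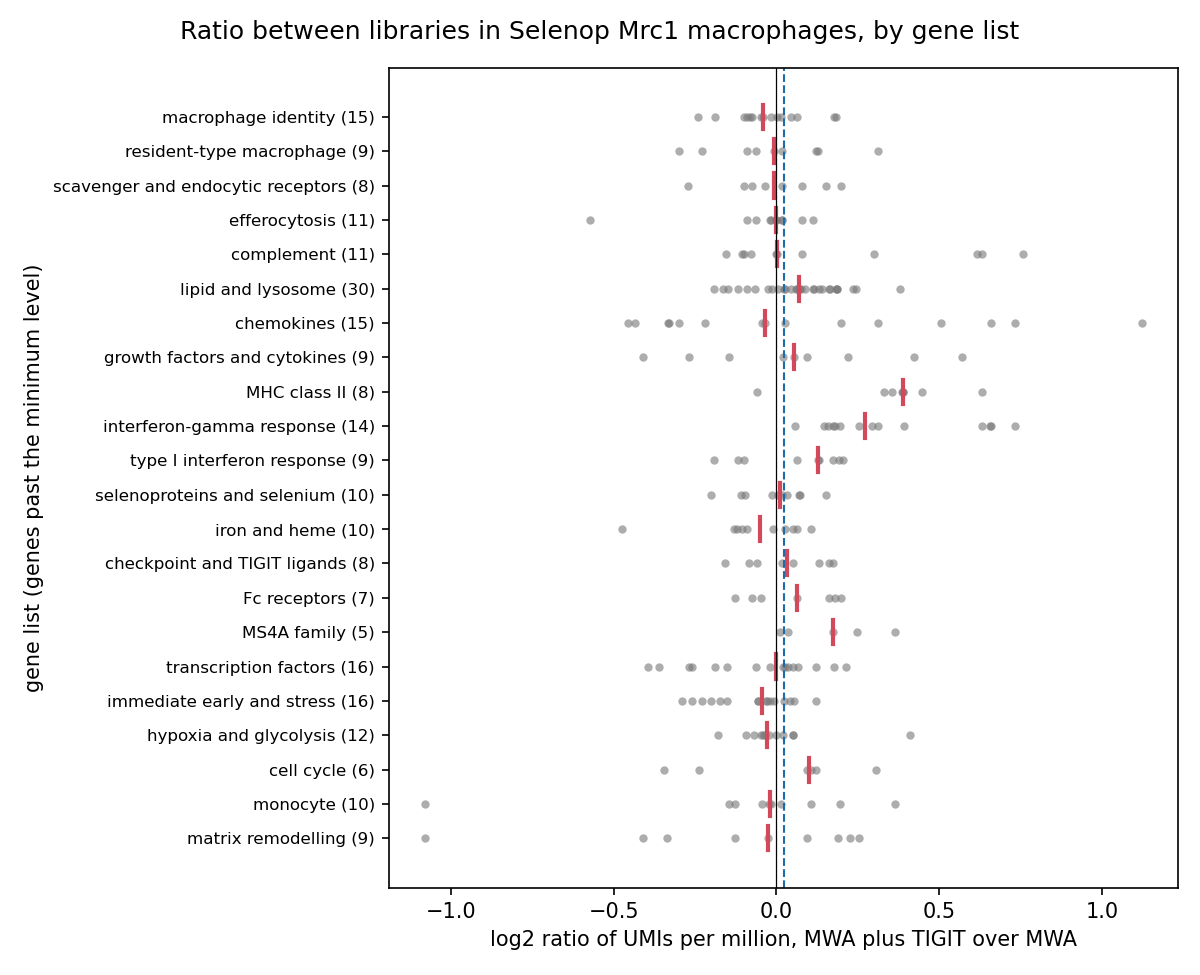
Log2 ratio of CPM, MWA plus TIGIT over MWA, of each gene past the level filter (grey points) in 22 lists, with the number of such genes in brackets. The red bars are list medians and the dashed line is the median of all 2544 genes, 0.02, with MHC class II at 0.39 and the interferon-γ response at 0.27 the farthest from it.

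Macrophage identity genes went both ways between the libraries, with a median close to 0. Of 15 past the filter 6 were higher and 9 lower, with a median of -0.04. They ran from Cd14, the lipopolysaccharide coreceptor, at -0.24 to the protease gene Ctss at 0.18. Resident-type genes had 9 of 25 past the filter, 4 higher and 5 lower, and a median of -0.01 (-0.29 without barcodes over 5000 UMIs), between Pf4 at -0.30 (-0.38 to -0.21) and Ccl8. Folr2 was at 0.13 (-0.06 to 0.31) and Cbr2 at -0.01 (-0.19 to 0.17). Selenop and Mrc1, whose levels the rule bounded from below, were at 0.03 and 0.12.

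Genes of uptake and clearance had medians close to 0 over all selected cells. The 8 scavenger and endocytic receptor genes past the filter were 4 higher and 4 lower, at a median of -0.01, from Siglec1, a sialic acid receptor, at -0.27 to Fcgrt, the neonatal Fc receptor, at 0.20. Without barcodes over 5000 UMIs their median was -0.13. Siglec1 passed the filter by MWA alone, which favours its direction. The 11 efferocytosis genes, for the uptake of dying cells, were 4 higher and 7 lower with a median of -0.0022 and Anxa1 as the lowest, and without the deeper barcodes 9 higher and 2 lower, at 0.18. The 7 Fc receptor genes were 4 higher and 3 lower with a median of 0.06, and 1 higher and 6 lower, at -0.18, without the deeper barcodes. The 11 complement genes were 6 higher and 5 lower, with a median of 0.0024 that was -0.03 under TMM factors. After thinning to 5000 UMIs 10 were higher and 1 lower, at 0.13, and without barcodes over 5000 UMIs 8 were higher and 3 lower, at 0.20. Within complement, C3 stood apart at 36.0 and 60.9 CPM, at a log2 ratio of 0.76 (0.47 to 1.05), and Cfb at 58.8 and 91.2 CPM, at 0.63 (0.41 to 0.86). C3 passed the filter by MWA plus TIGIT alone, which favours this direction. The MS4A membrane protein genes were 5 of 5 higher with a median of 0.17, 4 of 5 under TMM factors and 3 of 5 without barcodes over 5000 UMIs, with Ms4a4c at 0.37 as the highest and Ms4a7, the most abundant, at 0.01.

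Lipid and lysosome genes had the highest summed level, 44355 CPM in MWA and 48450 in MWA plus TIGIT, with 22 of 30 genes higher, 8 lower and a median of 0.07. Apoc2, an activator of lipoprotein lipase, was the highest at 0.38 and Lgals3, the gene of galectin-3, the lowest at -0.19. Selenium genes went both ways, with a median close to 0. Of 10 past the filter 6 were higher and 4 lower, with a median of 0.01 that was -0.02 under TMM factors. Gpx1 and Gpx4, glutathione peroxidases that remove hydrogen peroxide and lipid peroxides, were lower, at -0.11 (-0.16 to -0.06) and -0.20 (-0.30 to -0.10). Selenow was at 0.07. The iron and heme list had 4 higher and 6 lower of 10, with a median of -0.05. Its lowest gene was the organic anion transporter gene Slco2b1 at -0.47, and the ferritin genes Fth1 and Ftl1 were at -0.12 and -0.13.

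Growth factor and cytokine genes were 6 higher and 3 lower of 9 past the filter, with a median of 0.05. This turned to 3 higher and 6 lower, at -0.06, after thinning to 5000 UMIs and to 2 higher and 7 lower, at -0.34, without barcodes over 5000 UMIs. Il1b, the inflammatory cytokine interleukin-1β, stood at 259 and 347 CPM, at a log2 ratio of 0.42 (0.31 to 0.53), and the platelet-derived growth factor gene Pdgfa at 39.1 and 58.0 CPM, at 0.57. Pdgfa passed the filter by MWA plus TIGIT alone, which favours this direction. Spp1, the matrix protein osteopontin, stood at 205 and 154 CPM, at -0.41 (-0.56 to -0.27). Transforming growth factor β1, Tgfb1, was at -0.15. Matrix remodelling genes were 4 higher and 5 lower of 9, with a median of -0.03 and Thbs1 as the lowest, and monocyte genes 4 higher and 6 lower of 10, with a median of -0.02. Ccr2, the monocyte chemokine receptor, stood at 336 and 384 CPM, at a log2 ratio of 0.19 (0.09 to 0.29).

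Transcription factor genes were 8 higher and 8 lower of 16, with a median of -0.0012. After thinning to 5000 UMIs 4 were higher and 12 lower, at -0.09. With at least 10 Selenop and Mrc1 UMIs 6 were higher and 10 lower, at -0.08. The Krüppel-like factor genes Klf4, Klf2 and Klf6 were the lower end with ratios of -0.40, -0.36 and -0.27, and the stress factor gene Atf3 was at -0.26. Spi1, which encodes the myeloid master regulator PU.1, was at 0.18. Immediate early and stress genes were 4 higher and 12 lower of 16, with a median of -0.04 and Fosb the lowest at -0.29. After thinning to 5000 UMIs the median was -0.20, with 3 higher and 13 lower, and without barcodes over 5000 UMIs 0.09, with 10 higher and 6 lower. In the low neighbours it was -0.10.

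Hypoxia and glycolysis genes were 4 higher and 8 lower of 12, with a median of -0.03, which was 0.06 with 11 of 12 higher when barcodes were thinned to 5000 UMIs before the rule. Cell cycle genes were 4 higher and 2 lower of 6 with a median of 0.10, from the replication gene Mcm6 at -0.35 to Stmn1 at 0.30. Without barcodes over 5000 UMIs 2 were higher and 4 lower, at -0.12. Mcm6 passed the filter by MWA alone, which favours its direction.

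TIGIT ligands were sparse in these macrophages. Pvr, which encodes the high-affinity ligand CD155 (chromosome 7, 19903578 to 19921160, minus strand), stood at 23.5 CPM (19.4 to 28.2) in MWA and 20.8 CPM (16.6 to 25.6) in MWA plus TIGIT, a log2 ratio of -0.18 (-0.60 to 0.24). A UMI was found in 15.2% and 16.7% of the cells, beside 5.41% and 6.93% of T cells. After thinning the shares were 4.19% and 2.71%, beside 2.79% and 3.47% of T cells. Nectin2, which encodes the ligand CD112, reached 3.74 and 5.49 CPM, and Nectin3 had no UMI. Cd274, the gene of PD-L1, stood at 26.4 and 27.2 CPM, and after thinning in 5.06% and 4.98% of the cells, beside 5.90% and 5.53% of T cells, which can express it too. Pdcd1lg2, the gene of PD-L2, had 0.832 and 0.477 CPM. The list of checkpoint genes and TIGIT ligands as a whole had 5 higher and 3 lower of 8 past the filter, with a median of 0.03 that was 0.09, with 7 of 8 higher, after thinning to 5000 UMIs. Its most abundant genes were the inhibitory receptors Lair1, at 289 and 326 CPM, and Lilrb4a, at 306 and 288.

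Among themselves the selected macrophages were compared along MHC class II, the axis chosen here, and other axes were not ranked against it. In cells at or below the median MHC class II level of their library, compared with cells above it, F13a1 was higher by a log2 ratio of 2.14 (1.84 to 2.45) in MWA and 1.46 (1.17 to 1.77) in MWA plus TIGIT. Cbr2 was higher by 1.51 and 1.75. Gas6, which bridges dying cells to the receptors that engulf them, was higher by 1.43 and 1.31, and Folr2 by 0.92 and 1.33. Pf4, Stab1 and Maf followed at 1.01 and 1.15, 1.02 and 0.79, and 0.72 and 0.72. The CCR2 ligand genes Ccl7 and Ccl2 were on the same side, at 0.65 and 1.22, and 0.57 and 0.72. Igf1, another gene of the resident-type list, did not follow, at 0.29 (-0.17 to 0.75) and 0.03 (-0.43 to 0.49). Fn1 was on the side of little MHC class II too, at 0.63 and 0.43. Spp1 was there in MWA, at 1.18 (0.98 to 1.38), while its interval in MWA plus TIGIT included 0, at 0.19 (-0.04 to 0.42). Several resident-type genes, named after their values were seen, were thus higher in the cells with little MHC class II, and not these genes alone.

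The genes given for the opposite end were also named after their values were seen, and they form no list set beforehand. Ciita was lower in the cells with little MHC class II by -3.82 and -2.87. The integrin gene Itgax, which encodes CD11c, was at -2.51 and -2.66, the lectin gene Mgl2 at -4.11 and -3.87, and C3 at -1.39 and -1.99. Another lectin gene, Clec10a, did not follow, at 0.38 (-0.68 to 1.48) and 0.50 (-0.48 to 1.52). Cxcl9 stood at 316 CPM in the cells with little MHC class II and 673 in the others in MWA, and at 512 and 1028 in MWA plus TIGIT. Ccr2 was at -0.53 and -1.18. Ccl8 lay on the MHC class II side as well, at -0.48 (-0.62 to -0.33) and -0.89 (-1.03 to -0.74). It was away from F13a1, Cbr2, Gas6, Folr2, Pf4, Stab1 and Maf. Mgl2 and Clec10a are on the resident-type list too, so the genes of that list were split. Selenop was at 0.05 and 0.10 and C1qa at -0.06 and 0.07, while Mrc1 leaned to the cells with little MHC class II, at 0.30 (0.16 to 0.44) and 0.66 (0.52 to 0.81).

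**Figure D4:**
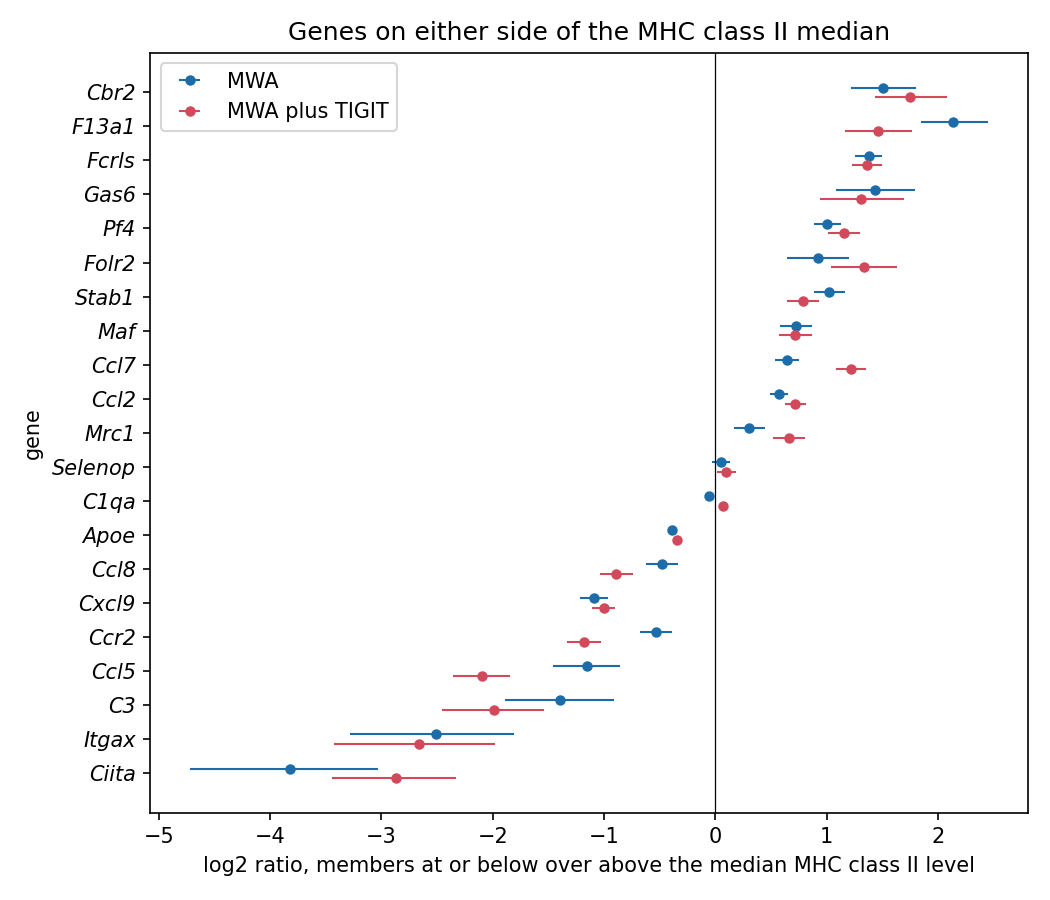
Log2 ratio of CPM of 21 genes in Selenop Mrc1 macrophages at or below, over those above, the median MHC class II level of their own library, with exact conditional intervals, blue for MWA and red for MWA plus TIGIT. F13a1 at 2.14 and 1.46 and Ciita at -3.82 and -2.87 are near the ends, with Selenop at 0.05 and 0.10 between them. The MWA plus TIGIT point of Ccl5 includes the cell with 264 of its 804 UMIs.

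Cells also differed in which marker met the minimum. Selenop alone reached 5 UMIs in 354 MWA cells (60.5%) and 252 MWA plus TIGIT cells (56.2%), and Mrc1 alone in 32 (5.47%) and 23 (5.13%). Both reached it in 92 cells (15.7%) and 111 cells (24.8%), and 107 (18.3%) and 62 (13.8%) passed only by the sum. Cells with both were deeper, with a median depth of 9652 and 10779 UMIs, where the Selenop cells had 7981.5 and 8906.5. They had a Ccl8 level of 556 and 525 CPM, against 309 and 390 in the Selenop cells and 72.3 and 109 in the Mrc1 cells. Their Cbr2 level was 220 and 200 CPM against 87.3 and 73.8 in the Selenop cells, and their median MHC class II level 3389 and 4225 CPM against 7495 and 20373. The cells with Selenop and Mrc1 both high were thus the ones richest in Ccl8 and Cbr2 among these subsets. In MWA plus TIGIT they were also poorest in MHC class II. In MWA the 32 Mrc1 cells had a lower median MHC class II level, 2358 CPM, beside 8160 CPM in the 23 Mrc1 cells of MWA plus TIGIT.

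The low neighbours were compared to show where the selected cells lie, as a description only, since the rule itself draws the border. Against the low neighbours of the same library, of median depth 5861 and 5508 UMIs, 19 of 2544 genes were at least 2-fold higher in both libraries (0.747%) and 7 lower (0.275%). The level filter used the selected cells alone, and of all 2544 genes 74.6% and 72.0% were higher than in the low neighbours. All 9 resident-type genes past the filter were higher, at medians of 1.21 and 1.35. This covers the low neighbours alone and does not make these genes particular to the selected cells. Gas6 was at 1.94 and 2.02, Cbr2 at 1.95 and 1.74, and Ccl8 at 1.71 and 1.85. Maf was at 1.22 and 1.37, the microglia-type genes Fcrls at 1.28 and 1.56 and P2ry12 at 1.23 and 1.38, and Ccl7 at 1.19 and 1.85. Folr2, Gpr34 and Igfbp4 complete the 10 highest. Lower were Spp1 (-1.54 and -1.59), the elastase gene Mmp12 (-2.77 and -3.78), Itgax (-1.33 and -1.72), Lgals3 (-1.18 and -1.46) and Ccl5 (-1.61 and -1.35). Also lower were AA467197, the lectin receptor genes Clec4d and Clec4e, the chaperone gene Hspb1 and the protease gene Napsa. Of these, Mmp12, Itgax, Clec4d, Clec4e, Hspb1 and Napsa were under the level filter in the selected cells and so not among the 2544. MHC class II genes were lower for 7 of 8, at -0.50 and -0.30. Over all 2544 genes these ratios had medians of 0.14 and 0.13, which TMM factors shift by -0.13 and -0.10.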

How the data were processed

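The authors deposited raw UMI counts of 32285 genes for each cell barcode (unit: counts), with no normalization, from 10x 3′ libraries aligned to mm10. The processing notes give Cell Ranger 6.1.1 and the matrix header 4.0.0. Cells were selected on these counts by the rule in the opening, and the members and gene lists were chosen with earlier results of these data known. UMIs were summed over the selected cells of each library and divided by their total (CPM). Ratios have exact conditional binomial intervals, levels exact Poisson intervals and shares Clopper-Pearson intervals. With 1 library in each group, at least 2-fold was a size rule and no test was made. The rule genes and mitochondrial and ribosomal protein genes were left out of the 2544 compared genes. By name, 18 of 19 scavenger, 22 of 23 chemokine and 21 of 22 type I interferon list genes were among the 32285 deposited. Clec7a, Cxcl11 and Mx1, of these lists, were not analysed here.

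Named genes were, by rule, the 25 of highest level, the 12 highest and 12 lowest ratios, and the 10 farthest from each neighbour in each direction that kept 1 direction in both libraries. To these were added, in each list, the 4 most abundant genes and the highest and lowest ratios, myeloid genes named by the study, and the markers. Other genes of the lists, and those of the MHC class II split, were named after their values were seen. Another planned neighbour, with at least 5 Ly6c2, Plac8 and Chil3 UMIs, had 4 and 16 cells and was not used. Some genes, 1 further condition of the rule and the neighbour it defines are not reported here. Cells were thinned without replacement. Thinning to 5000 UMIs also left out shallower barcodes, here and in the gene and list values after such thinning. Doublets were called from simulated sums of barcodes on 20 principal components. Alternatives were doublets left out, an upper limit of 5000 UMIs, thinning to 5000 UMIs, at least 10 Selenop and Mrc1 UMIs, at most 5% mitochondrial UMIs, shared barcodes left out, TMM factors, other totals, means of per-cell CPM and other level filters. Scripts used Python 3.11.15 with numpy 2.4.6, scipy 1.17.1, pandas 2.3.3, scikit-learn 1.9.0 and matplotlib 3.10.9, and R 4.3.3 with edgeR 4.0.16. The scripts were tested on simulated data. Coordinates came from the GENCODE annotation of GRCm38, matched by gene ID for 32158 of 32285 genes.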

Additional observations from a re-analysis of the deposited data

Results flagged for a closer look

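Some genes had a log2 ratio of MWA plus TIGIT over MWA of opposite sign in the selected macrophages and in the low neighbours, the barcodes that met all conditions but the Selenop and Mrc1 minimum, with both counting intervals clear of 0 and both sizes at least 0.15. The difference between the populations was not tested, and 1 library stands behind each group. AA467197 was at -0.48 in the selected cells and at 0.20 in the low neighbours. Pdgfa was at 0.57 against -0.41, and it passed the level filter by its MWA plus TIGIT level in the selected cells alone.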

How the results depend on the processing

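No paired analysis was possible because each group had 1 library. Depth limits genes under about 50 CPM, where counting intervals are wide, and the raw-count rule. The share of kept barcodes, 5.83% in MWA and 4.52% in MWA plus TIGIT, was 1.73% and 1.17% without barcodes over 5000 UMIs. It was 8.99% and 7.63% after thinning to 5000 UMIs, which also left out shallower barcodes and kept 5641 and 6143. With at least 10 Selenop and Mrc1 UMIs it was 2.67% and 2.63%. The share of C1q macrophages was 7.04% and 6.15% under that stricter minimum, 14.6% and 11.7% after thinning and 14.7% and 11.0% without barcodes over 5000 UMIs. Genes at least 2-fold higher numbered 3, and 95 without barcodes over 5000 UMIs (76 and 44 cells), 1 after thinning, 6 from 20 CPM and 80 with no CPM minimum. Those at least 2-fold lower numbered 4, and 157 without barcodes over 5000 UMIs, 1 from 100 CPM, 101 with no minimum, 2 with called doublets left out and 2 without the highest cell of each gene in each library, a setting chosen after seeing the data. S100a8 reversed to 0.75 without called doublets, 0.23 under the stricter minimum and 0.79 without its highest cells. Apart from the values above, which cells and genes enter a setting differs by its construction, and the cause of other moves was not tested. Among 188 named genes the sign of the ratio differed for 6 under TMM factors, 5 with other totals, 12 with means of per-cell CPM and 9 with called doublets left out. It differed for 56 of 181 without barcodes over 5000 UMIs, 32 of 187 after thinning and 24 of 186 under the stricter minimum. The median of a gene list turned its sign for 6 of 22 lists without barcodes over 5000 UMIs, 5 after thinning, 3 under the stricter minimum, 3 with means of per-cell CPM and 2 under TMM factors.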
